A study of Homo sapiens with 18 samples.

Results

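The comparison described here sets T47D cells given 10 nM R5020 for 6 h against T47D cells given 0.1 nM R5020 for 6 h, over all regions of accessible chromatin in the deposited count table. It uses 6 of the 18 libraries of the series, 3 per dose, and 132304 of the 132604 listed regions, those that passed a filter on low counts. T47D is an established human breast carcinoma line, and R5020 (promegestone) is a synthetic progestin. All groups, vehicle included, were synchronized by serum starvation in medium with little charcoal-stripped serum before treatment. The 3 vehicle libraries of 6 h (DMSO) give the level of each region without hormone, and the 18 h libraries of both doses give the same comparison in other samples. Whether the 3 libraries of a group are separate cultures is not stated. The p-values therefore rest on the spread of these libraries alone, and that spread may be technical.

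R5020 acts through the progesterone receptor, a nuclear receptor that binds DNA once it holds its ligand and recruits cofactors that open or close chromatin around it. Such receptors bind enhancers far from genes as well as promoters, and in luminal breast cancer cells much of their binding lies at sites shared with other luminal transcription factors. Omni-ATAC-seq reads this out through the Tn5 transposase, which cuts open DNA and adds sequencing adapters, so that more reads in a region mean a more open region.

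Libraries of the 0.1 nM group held 16463585 to 36993461 counts in regions and those of the 10 nM group 21015917 to 33726875. The 5000 regions with the most counts took 36.6% to 39.3% of the counts with 0.1 nM and 33.5% to 34.6% with 10 nM. This share did not overlap between the groups. Within the 0.1 nM group, replicate 2 had the lowest share. Levels are given as CPM, counts scaled to a common library size after TMM normalization, and differences as log2 fold changes of 10 nM over 0.1 nM. Regions are named by hg19 chromosome, start and end as the table gives them, and gene annotation of that build was not used here, so neither genes nor markers of the cell line are given.

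Accessibility at 6 h was higher with 10 nM than with 0.1 nM at 19984 regions and lower at 6947 by edgeR's quasi-likelihood test (adjusted p under 0.05). These are 15.1% and 5.25% of the regions tested, 20.4% together. The libraries of the doses did not overlap at 99.3% of the higher and 98.1% of the lower regions, where 22.7% and 18.3% of all regions had no overlap in that direction. The higher regions were far apart between the doses: their median log2 difference was 1.92, 18333 differed by at least 2-fold, 9178 by at least 4-fold and 254 by at least 16-fold. The lower regions differed less, with a median of -1.04, 3730 regions at 2-fold or more, 321 at 4-fold or more and 14 at 8-fold or more. The sets also differed in vehicle level, with medians of 0.90 CPM for higher and 6.50 CPM for lower regions. In quartiles of vehicle level, weakest to strongest, the median was 2.25, 1.75, 1.33 and 1.001 for higher regions. It was -1.63, -1.39, -1.10 and -0.90 for lower regions. At like level the sets were thus closer in size, most so in the strongest quartile. The median over all tested regions was -0.06. The number of lower regions fell whenever a single library was left out, which also makes its group smaller. The fall was smallest without 0.1 nM replicate 2. The number was 4068 without 0.1 nM replicate 1 and 3760 without 0.1 nM replicate 3. It was 3847, 4266 and 4333 when 10 nM replicate 1, 2 or 3 was left out in turn. With TMM factors from the 5000 strongest regions alone, 19050 regions were higher and 2467 lower, so that 88.5% of the calls were higher in place of 74.2%. That scaling put the median of all regions at 0.19. A covariate for the percentage of counts in those 5000 regions gave 22469 higher and 11399 lower.

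In the higher regions the median CPM was 0.77, 1.07 and 0.84 in the 3 libraries of 0.1 nM, 0.74, 0.81 and 1.13 in those of vehicle, and 3.56, 3.38 and 3.72 in those of 10 nM. The medians of 0.1 nM and vehicle overlapped and those of 10 nM stood above both. The libraries of both doses chose these regions, so these levels are a description. The same regions had a median log2 fold change of 1.92 for 10 nM against vehicle and of -0.0049 for 0.1 nM against vehicle, comparisons that share libraries with the dose difference. For 0.1 nM against vehicle the regions went both ways, from -0.74 at the 10th percentile to 0.75 at the 90th. Over all regions, 10 nM against vehicle called 16.7% higher and 8.42% lower (25.1% together), and 0.1 nM against vehicle called 0.949% higher and 0.241% lower (1.19% together). The counts for 0.1 nM against vehicle, 1256 higher and 319 lower, depended on the fit. They were 2885 and 1103 with the covariate, 2005 and 741 with the replicate number as a block, and 1679 and 670 by DESeq2, and a loess offset, which removes level-dependent differences between libraries, gave 1505 and 487. In the lower regions the median CPM was 6.32, 5.55 and 6.49 with 0.1 nM, 6.93, 6.59 and 5.75 with vehicle, and 2.86, 2.89 and 2.99 with 10 nM. Their median log2 fold changes against vehicle were -1.07 for 10 nM and -0.04 for 0.1 nM.

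**Figure D1:**
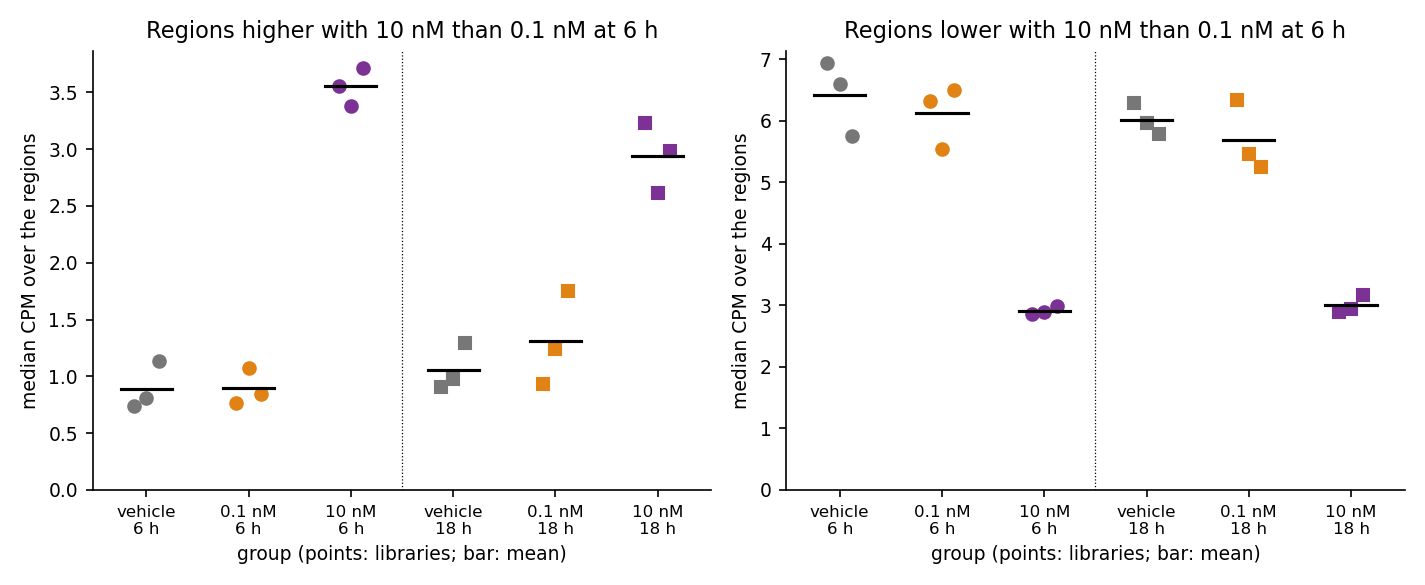
Median CPM over the 19984 regions higher (left) and the 6947 regions lower (right) with 10 nM than with 0.1 nM at 6 h, in each of the 18 libraries (points) with the mean of each group (bar). The 6 h libraries of the doses chose these regions; the 18 h libraries, on the right of each dotted line, did not, and their 10 nM points lie above (left) or below (right) all vehicle and 0.1 nM points of that time.

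The largest difference in the higher direction, among regions whose mean log2 CPM was 1 or more, was at chr1:210759938-210760406. CPM there was 0.0886, 0.418 and 0.477 with 0.1 nM against 10.6, 8.50 and 13.9 with 10 nM. Vehicle libraries had 0.525, 0.331 and 0.890 CPM, overlapping 0.1 nM, and the doses stood 35.3-fold apart (log2 5.14, SE 0.58, edgeR adjusted p = 3.23e-06). At chr20:30702364-30702724, the 0.1 nM libraries lay close together at 0.354, 0.418 and 0.440 CPM and the 10 nM libraries at 13.2, 13.8 and 13.8 CPM. That difference was 33.5-fold, and vehicle replicate 3, at 2.10 CPM, was above both other vehicle libraries (0.420 and 0.700 CPM). The region at chr7:90036733-90037117 had 0.384, 0.656 and 0.293 CPM with 0.1 nM and 11.01, 14.3 and 13.1 CPM with 10 nM, a 29.9-fold difference. At chr4:56477664-56478239 the difference was 27.6-fold, from 0.406 ± 0.0948 CPM to 11.7 ± 0.641 CPM (SD, n = 3).

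The other 2 regions of this set were more open with 10 nM than the 4 above. At chr16:14561529-14562140, CPM was 0.709, 0.418 and 1.21 with 0.1 nM against 19.6, 20.6 and 24.5 with 10 nM. At chr9:88669537-88670189, the 0.1 nM libraries held 0.620, 1.67 and 0.513 CPM and the 10 nM libraries 22.3, 22.9 and 24.5 CPM. Each of these 2 regions differed 26.6-fold, and in each the vehicle libraries, at 0.525 to 1.46 CPM and 1.05 to 1.62 CPM, were no higher than 1.67 CPM. The 6 regions were 360 to 652 bp wide. Each kept its direction and its side of the threshold under all 17 other settings tried.

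**Figure D2:**
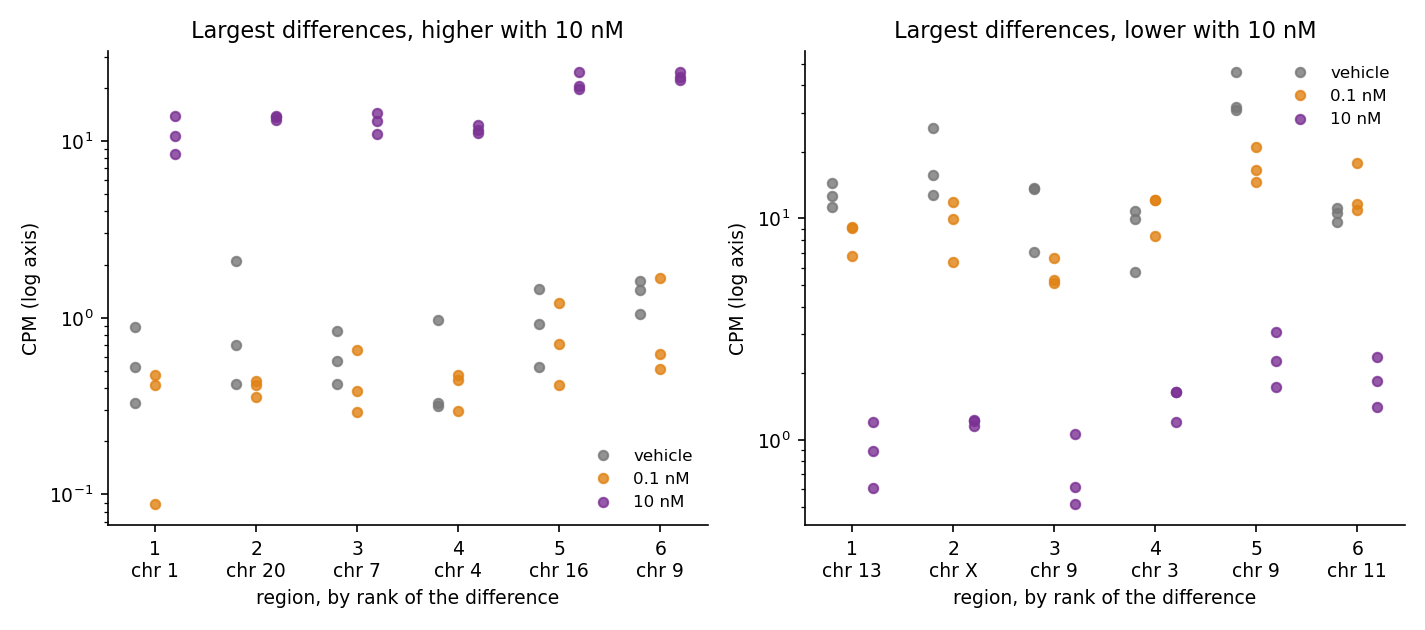
CPM (log axis) in each 6 h library at the 6 regions with the largest difference in each direction, ranked by the size of the difference and labelled by chromosome. Points are libraries. On the left the 10 nM points lie at 8.50 CPM or more and the 0.1 nM points at 1.67 CPM or less; on the right the 10 nM points lie at 3.07 CPM or less and the 0.1 nM points at 5.14 CPM or more.

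The 6 largest differences in the lower direction, among regions past the same minimum level, were at regions in the strongest quartile of vehicle level. The minimum level favours this placement, since a region that falls far must start high to keep its mean above it. Without the minimum, larger falls were fitted in weaker quartiles, at log2 -3.65 (chr10:54792406-54792575), -3.63 (chr4:112107160-112107511) and -3.45 (chr2:35522495-35522695). One in the strongest quartile, at chrX:78213767-78214490, had log2 -3.39. At chr13:33919718-33920251, CPM was 9.04, 6.80 and 9.13 with 0.1 nM, 14.4, 12.6 and 11.3 with vehicle and 0.609, 0.890 and 1.20 with 10 nM. The 10 nM level was 9.02-fold below the 0.1 nM level (log2 -3.17, SE 0.27, edgeR adjusted p = 2.52e-07). A region at chrX:16584531-16585446 had 9.90, 6.38 and 11.8 CPM with 0.1 nM and 1.22, 1.16 and 1.23 CPM with 10 nM, 7.80-fold lower. There, too, the 0.1 nM libraries lay below the 3 vehicle libraries (25.6, 15.7 and 12.8 CPM), but 0.1 nM against vehicle did not pass the test (log2 -0.93, edgeR adjusted p = 0.218).

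Chromosome 9 held 2 of the 6. The region from 12904168 to 12905533 stood at 16.5, 14.6 and 20.9 CPM with 0.1 nM, 1.73, 2.27 and 3.07 CPM with 10 nM and 45.7, 31.9 and 31.0 CPM with vehicle, so that the groups lay in the order of dose without overlap. The dose difference was 7.26-fold, while 0.1 nM against vehicle missed the threshold (log2 -1.06, edgeR adjusted p = 0.104). The region from 31259888 to 31260621 was 7.76-fold lower, at 0.515, 1.07 and 0.615 CPM with 10 nM. At the remaining 2 regions the mean 0.1 nM level was above that of vehicle. At chr3:182527251-182527660, CPM was 12.2, 8.35 and 12.1 with 0.1 nM, 10.8, 9.94 and 5.75 with vehicle and 1.64, 1.65 and 1.20 with 10 nM. At chr11:34686679-34687302, the 0.1 nM libraries held 11.6, 10.9 and 17.9 CPM, those of vehicle 9.66, 11.2 and 10.6 CPM and those of 10 nM 1.41, 2.36 and 1.84 CPM.

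The direction of the difference followed the level of a region without hormone. Regions were ranked by their mean CPM in the 3 vehicle libraries of 6 h, whose levels do not enter the dose difference, and split into deciles. In the weakest decile, with a median of 0.320 CPM in vehicle, 4771 of 13231 regions were higher with 10 nM (36.1%, against 15.1% of all regions) and 15 were lower. The median with 0.1 nM was 0.349 CPM in that decile, which leaves little room for a fall to be called. The share higher was smaller in each stronger decile, down to 0.771% in the strongest. The share lower was larger in each stronger decile up to the ninth, where 15.1% of regions were lower against 5.25% of all, and was 7.24% in the strongest. The median difference went from 1.32 in the weakest decile to -0.27 in the strongest. How the region list was merged is not stated, so how many weak regions are listed because they were open with 10 nM cannot be told from these files. With the loess offset, 6765 in place of 9863 regions of the weakest quartile were higher.

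**Figure D3:**
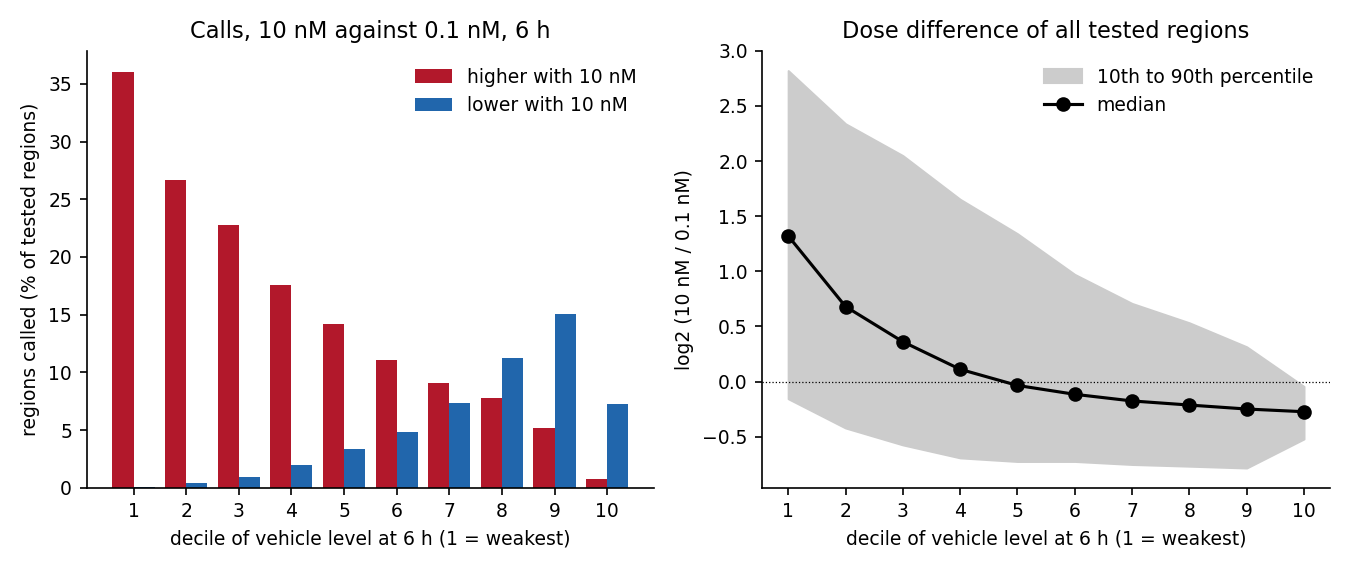
Left, percent of tested regions called higher or lower with 10 nM than with 0.1 nM at 6 h in each decile of vehicle level (decile 1 weakest). Right, median log2 ratio of the doses (points) with the 10th to 90th percentile of regions (grey). Calls are 36.1% higher in the weakest decile and 15.1% lower in the ninth, and the median falls from 1.32 to -0.27 with TMM factors from all tested regions.

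A shift of counts towards weak regions could be read without scaling between libraries. The quartile shares of a library add up to its whole count, so a rise in one forces a fall elsewhere. They are therefore not separate readings, and they cannot tell whether strong regions lost accessibility. Regions of the weakest vehicle quartile took 1.49%, 2.61% and 1.70% of the counts with 0.1 nM and 4.61%, 4.21% and 4.68% with 10 nM. Regions of the strongest quartile took 83.6%, 79.9% and 82.9% in the 0.1 nM libraries and 74.7%, 75.7% and 74.3% in the 10 nM libraries. At 6 h the groups did not overlap in either quartile, and replicate 2 of 0.1 nM was the library of its group nearest to 10 nM in both. The exact two-sided permutation p was 0.1 for each quartile, the smallest that 3 against 3 libraries allow (Benjamini-Hochberg adjusted 0.114 over 8 such shares). At 18 h the doses overlapped in both quartiles. The weakest took 1.87%, 2.95% and 4.57% in the 0.1 nM libraries of 18 h and 4.40%, 5.42% and 6.54% in those of 10 nM (exact permutation p = 0.2, adjusted 0.267).

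**Figure D4:**
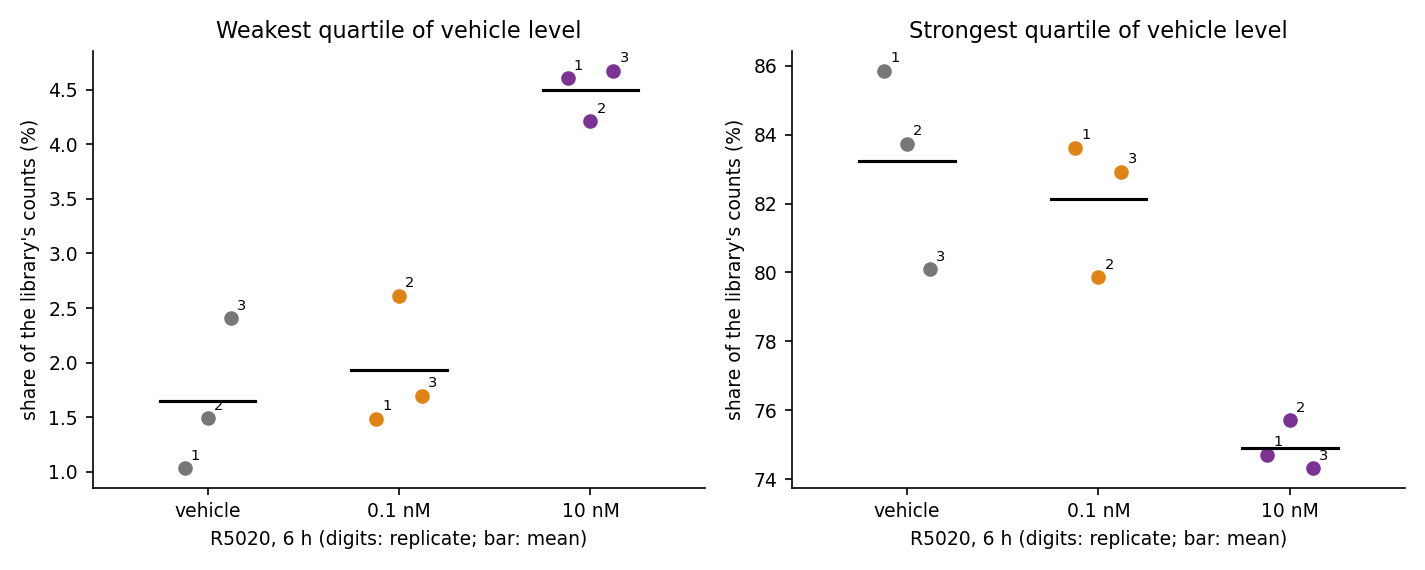
Percent of each 6 h library's counts that fell in regions of the weakest (left) and strongest (right) quartile of vehicle level; points are libraries with their replicate number, bars are group means, and the axes do not start at 0. The 10 nM libraries hold 4.21% to 4.68% in the weakest quartile, above the 1.03% to 2.61% of the other groups, and 74.3% to 75.7% in the strongest, below their 79.9% to 85.9%.

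The region with the largest fitted difference in each vehicle quartile was taken next. In the weakest quartile it was at chr4:165182210-165182369, with 0 counts in all 3 libraries of 0.1 nM and 0.750, 0.757 and 0.937 CPM with 10 nM. Against a floor of 3 counts over the 0.1 nM group this was at least 21.1-fold higher, a bound below the 35.3-fold of chr1:210759938-210760406 in the same quartile, so which of them differed more is not settled. Vehicle libraries held 0.105, 0.295 and 0.324 CPM there. In the third quartile, at chr17:34115529-34116316, CPM was 1.45, 2.27 and 1.69 with 0.1 nM against 29.3, 25.1 and 43.9 with 10 nM, 18.5-fold higher. In the strongest quartile, at chr20:45027899-45028591, the 0.1 nM libraries held 7.47, 7.28 and 7.004 CPM and the 10 nM libraries 63.3, 65.9 and 79.2 CPM, 9.57-fold higher. The second quartile gave the region at chr20:30702364-30702724 described above.

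In the lower direction the largest differences of the 3 weaker quartiles ended near 0 counts. At chr2:35522495-35522695, CPM was 0.857, 1.43 and 0.917 with 0.1 nM against 0, 0.223 and 0.0585 with 10 nM. At chr4:112107160-112107511, CPM was 0.827, 0.835 and 0.440 with 0.1 nM and between 0.0445 and 0.0585 with 10 nM. The region at chr10:54792406-54792575, in the weakest quartile, stood at 0.538 ± 0.171 CPM and 0.0344 ± 0.0306 CPM (SD, n = 3), and its call was lost under 2 of 15 other settings, with adjusted p up to 0.0626. In the strongest quartile, at chrX:78213767-78214490, CPM was 3.72, 4.29 and 5.98 with 0.1 nM against 0.422, 0.534 and 0.381 with 10 nM, 10.5-fold lower.

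The 4 regions with the highest mean CPM among those higher with 10 nM were 1.59-fold to 1.83-fold apart. At chr7:2232683-2233479, the libraries stepped up with dose: 45.6, 44.5 and 41.6 CPM with vehicle, 79.4, 69.3 and 85.7 CPM with 0.1 nM and 118, 128 and 141 CPM with 10 nM. Both steps passed the test, with log2 0.83 for 0.1 nM against vehicle (edgeR adjusted p = 0.0308) and 0.73 for 10 nM against 0.1 nM (edgeR adjusted p = 0.00832). At chr16:85418047-85419025, CPM was 102, 89.95 and 128 with 0.1 nM against 165, 157 and 186 with 10 nM. At chr7:906596-907612, CPM was 92.2, 93.0 and 93.5 with 0.1 nM against 142, 148 and 156 with 10 nM. The calls of these last 2 regions were lost under 4 and 6 of 17 other settings, with adjusted p up to 0.120. The remaining region, at chr14:50467199-50468670, was 1.83-fold higher.

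The 4 strongest lower regions were 2062 to 2499 bp wide and 1.51-fold to 1.77-fold lower. At chr8:145016191-145018368, CPM was 320, 300 and 323 with 0.1 nM against 193, 192 and 193 with 10 nM. At chr11:61462507-61465006, the 10 nM libraries (176, 198 and 188 CPM) lay with vehicle (191, 198 and 174 CPM), and the 0.1 nM libraries (274, 281 and 293 CPM) stood above both. For that region 0.1 nM against vehicle did not pass the test (log2 0.59, edgeR adjusted p = 0.265). The regions at chr14:105939092-105941531 and at chr17:39677329-39679391 were 1.61-fold and 1.77-fold lower with 10 nM. These 4 calls were lost under 8, 10, 8 and 5 of 17 other settings in the order given, with adjusted p up to 0.2996.

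Width set the regions apart in another way. Higher regions had a median width of 382 bp and lower regions one of 582 bp, beside 387 bp for all tested regions. The narrowest quartile (138 to 240 bp) held 12.4% higher and 1.85% lower regions, and the widest (640 to 4039 bp) 10.0% and 8.86%. Wide regions were also the more open ones: the median vehicle level was 0.699 CPM in the narrowest quartile and 12.8 CPM in the widest. Within one level, however, wider regions were more often higher with 10 nM. In the weakest level quartile the share higher was 18.3% of 20380 regions in the narrowest width quartile, 41.6% of 9941 and 71.6% of 2613 in the next ones, and 93.0% of 142 in the widest. In the second level quartile it went from 3.55% to 64.5%, and in the strongest from 0.291% to 3.99%. The share lower did not follow width in this way and was 13.4%, 12.5%, 15.6% and 10.3% from narrow to wide in the strongest level quartile. Region widths come from the authors' peak calls, and which libraries set them is not stated.

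**Figure D5:**
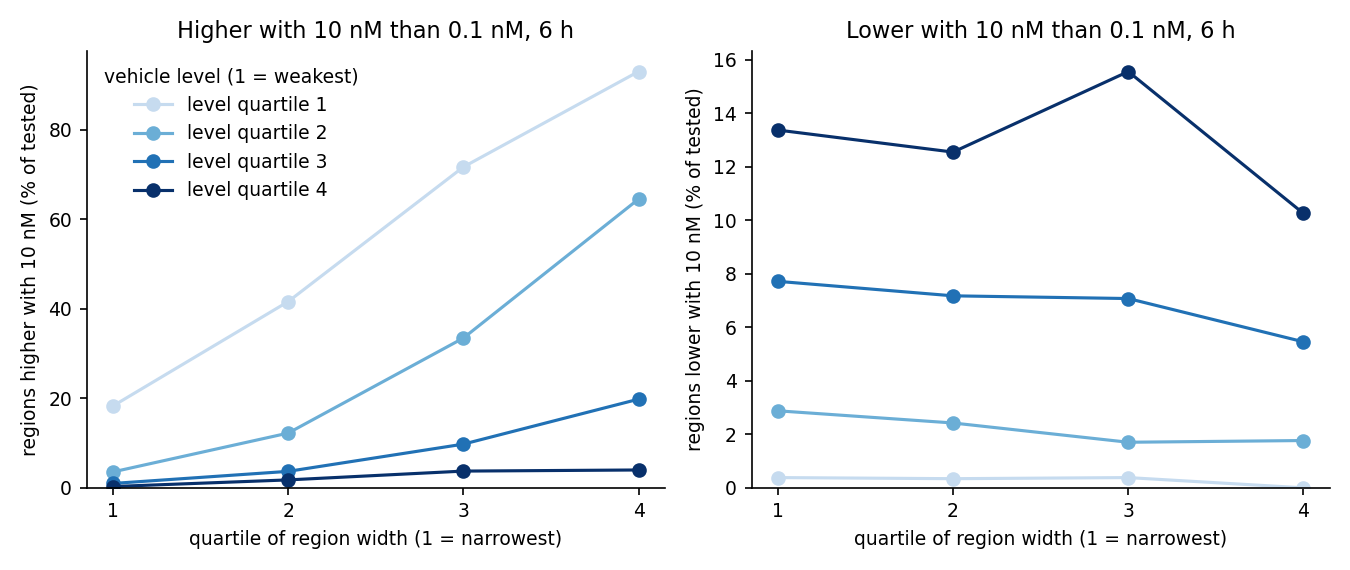
Percent of tested regions higher (left) and lower (right) with 10 nM than with 0.1 nM at 6 h by quartile of region width, one line for each quartile of vehicle level. In the weakest level quartile the share higher climbs from 18.3% to 93.0% with width (the last point holds 142 regions); in the strongest level quartile the share lower lies between 10.3% and 15.6%.

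The widest region that was higher lay at chr14:74251161-74254197 and was 3036 bp wide. It had 52.2, 50.2 and 52.0 CPM with 0.1 nM and 114, 121 and 139 CPM with 10 nM, 2.43-fold higher (edgeR adjusted p = 4.69e-05) and close in mean level (88.1 CPM over both doses) to the last of the 4 most open higher regions (89.5 CPM), with vehicle at 50.03 to 60.6 CPM. The next widest, at chr12:678860-681504 and at chr4:4541989-4544323, stood 1.46-fold and 1.66-fold above 0.1 nM, calls that were lost under 5 and 2 of 17 other settings. The widest lower region, at chr7:142835668-142838579, spread most within 0.1 nM: replicate 1 stood at 6.00 CPM and replicates 2 and 3 at 17.9 and 18.3 CPM. With 10 nM it was at 2.86, 2.27 and 2.55 CPM, 5.47-fold lower. At chr20:52480655-52483422, CPM was 134, 103 and 83.0 with vehicle, 50.5, 48.1 and 54.3 with 0.1 nM and 28.3, 28.0 and 26.9 with 10 nM. Both steps down passed the test there, at log2 -1.07 (edgeR adjusted p = 0.00742) and -0.88 (edgeR adjusted p = 0.00338). The third, at chr16:28543476-28546279, was 1.57-fold lower, and its call was lost under 10 of 17 settings.

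Both directions were found on all 23 chromosomes with at least 1000 tested regions. The share higher ran from 8.62% on chromosome 19 to 18.4% on chromosome 2, with a median of 15.4%, and the share lower from 3.78% on chromosome 8 to 6.56% on chromosome 13. Chromosome 19 also had the highest median vehicle level of these chromosomes, 4.78 CPM. Among regions of the weakest level quartile, the share higher was 19.5% on chromosome 8, 21.9% on chromosome 11 and 26.7% on chromosome 19. It was 40.6% on chromosome 4, 41.8% on chromosome X and 42.3% on chromosome 13, beside 29.8% of all regions of that quartile.

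Along the chromosomes the calls were spread out. Of 2275 windows of 1 Mb with at least 20 tested regions, the median window had 14.7% higher and 4.35% lower regions, 41 had no higher region and 366 no lower one. The richest in higher regions were at chr3:116000001-117000000 (11 of 25 regions, 44.0%), at chr2:137000001-138000000 (9 of 21) and at chr6:106000001-107000000 (18 of 43). The richest in lower regions was at chr9:13000001-14000000, where 12 of 33 were lower (36.4%) and 7 higher. The next window towards the chromosome's start, from 12000001 to 13000000, had 14 of 49 lower, and it holds the region from 12904168 to 12905533 described above. The other two among the first 3 were at chr2:226000001-227000000 (8 of 25) and at chr4:69000001-70000000 (7 of 23).

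Regions called in one direction lay beside regions of the same direction more often than other regions did. The nearest listed region was itself higher for 23.8% of higher regions, beside 15.6% over all regions, and itself lower for 14.9% of lower regions, beside 5.42%. Runs of neighbours no more than 100 kb apart, all called the same way, numbered 765 with at least 3 higher regions and 116 with at least 3 lower regions. These hold 13.1% of the higher and 5.48% of the lower regions.

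The longest runs held 8 higher regions. One spanned chr5:64333347-64390248, with log2 differences of 0.88 to 3.92. The strongest region in it, from 64362094 to 64362951, had 2.54, 3.04 and 2.97 CPM with 0.1 nM and 9.74, 9.62 and 9.45 CPM with 10 nM. Its first region, from 64333347 to 64333570, had the largest difference, from 0.185 ± 0.0996 CPM to 2.69 ± 0.238 CPM (SD, n = 3). At 18 h, 5 of these 8 regions were again higher with 10 nM, where 6.67% of all regions and 39.3% of those higher at 6 h were. The other spanned chr14:91378715-91516412, with differences of 0.73 to 2.51. Its strongest region, from 91448088 to 91448456, had 4.17, 3.46 and 5.79 CPM and 8.67, 7.57 and 7.73 CPM, and lost its call under 5 of 17 settings. At 18 h, 1 of the 8 was called.

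The longest runs in the lower direction held 6 regions, and the first 2 in rank are described. At chr2:190405860-190435758 the differences were -1.22 to -2.58. The strongest region of this run, from 190405860 to 190407104, stood at 47.3, 37.3 and 47.6 CPM with 0.1 nM, close to vehicle (66.8, 49.8 and 43.8 CPM), and at 13.1, 11.9 and 14.6 CPM with 10 nM. The largest fall in level relative to 0.1 nM was from 190424282 to 190424933, from 5.42 ± 0.788 CPM to 0.905 ± 0.207 CPM (SD, n = 3). At 18 h, 3 of these 6 regions were called lower, where 4.22% of all regions and 50.2% of those lower at 6 h were. At chr6:145417926-145473110 the differences were -1.03 to -2.56, and 5 of the 6 regions were lower with 10 nM at 18 h as well. Its strongest region, from 145432220 to 145433084, had 15.95, 16.2 and 23.1 CPM with 0.1 nM and 7.17, 9.22 and 10.6 CPM with 10 nM.

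The 18 h libraries, whose dose difference did not enter the choice of these regions, showed the dose difference in the same direction. They did share in the filter, the TMM factors and the estimate of spread, and may have shaped the region list. Over the 19984 regions higher at 6 h, the median log2 difference at 18 h was 1.12, against 1.92 at 6 h, and 7847 of them (39.3%) were called higher at 18 h, where 6.67% of all regions were. Over the 6947 lower regions it was -0.88, against -1.04, and 3490 (50.2%) were called lower, where 4.22% of all regions were. The 6 h libraries chose these regions, which favours large differences at 6 h, so these medians do not measure a change with time. In the weakest vehicle decile the median was 1.32 at 6 h and 0.88 at 18 h, and in the strongest -0.27 and -0.21. Counts in regions ran from 8756311 to 39984217 in the 18 h libraries of the doses. The 18 h libraries did not overlap, in the direction of the 6 h call, at 58.5% of the higher and 67.7% of the lower regions, against 12.8% and 9.2% of all regions. Median CPM in the higher regions at 18 h was 0.93, 1.24 and 1.75 in the 0.1 nM libraries and 3.23, 2.62 and 2.98 in the 10 nM libraries. The lower regions had medians of 6.34, 5.46 and 5.25 CPM in the 0.1 nM libraries and of 2.89, 2.94 and 3.17 CPM in the 10 nM libraries. The share called again among higher regions was 36.8% in the weakest level quartile and 38.7% in the strongest, and among lower regions 24.6% and 59.3%. Of the 6 largest differences in each direction, all 12 were called in the same direction at 18 h.

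The difference between the doses itself changed between 6 h and 18 h at 15 regions by the edgeR interaction test, 0.0113% of those tested, each with a smaller value at 18 h. That number depended on the fit: it was 350 by DESeq2, 642 with the covariate, 141 with the replicate block and 69 with the loess offset. For a larger value at 18 h, 0 regions passed by edgeR, 1 by DESeq2, 1 with the loess offset and 5 with the covariate. The unadjusted edgeR p was under 0.05 at 7608 regions, counting both directions. These are 5.75% of those tested, not far above the share that such a threshold passes where nothing changes. At chr17:72432427-72432862, CPM at 6 h was 0.975, 1.55 and 1.39 with 0.1 nM against 10.4, 9.93 and 11.9 with 10 nM. At 18 h the doses overlapped, at 1.32, 1.31 and 2.82 CPM and 1.05, 1.88 and 1.40 CPM. The region at chr20:49511698-49512213 had 3.84, 3.46 and 2.71 CPM and 21.3, 23.1 and 20.5 CPM at 6 h, and 3.902, 4.91 and 5.64 CPM and 6.96, 5.81 and 5.22 CPM at 18 h. At chr2:202883726-202884078 the doses crossed: 10 nM was 1.89-fold higher at 6 h (2.58, 3.65 and 3.57 CPM against 1.80, 2.03 and 1.39 CPM). At 18 h it stood at 0.841, 0.736 and 0.653 CPM against 2.94, 2.28 and 2.24 CPM with 0.1 nM. At chr6:148887266-148887752, CPM was 0.709, 0.895 and 0.880 with 0.1 nM against 3.79, 3.83 and 3.89 with 10 nM at 6 h, and the dose difference at 18 h did not pass the test (log2 -0.87, edgeR adjusted p = 0.134).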

How the data were processed

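Omni-ATAC-seq libraries of T47D cells were compared as raw read counts per region, which the authors deposited unscaled. The submitters' processing notes name BWA, MACS2 and hg19. Tool versions, filters on reads, a correction for the offset of Tn5 cuts and the way regions were merged are not stated there. Columns were matched to samples by title. The test was edgeR 4.0.16 under R 4.3.3: filterByExpr (minimum count 10, minimum total 15) left out 300 regions, TMM factors scaled the libraries, and a single quasi-likelihood model with 1 coefficient for each of 6 groups was fitted to all 18 libraries (12 residual df). P-values were adjusted by Benjamini and Hochberg over all tested regions. SEs of log2 fold changes were derived from the F statistic. CPM came from edgeR, with a prior count of 2 where logged.

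Named regions, among those called with no overlap between the libraries of the doses, were in each direction the 6 with the largest difference at a mean log2 CPM of at least 1, the 4 with the highest CPM, the 3 widest and the largest in each vehicle quartile. The 3 richest windows and 2 longest runs in each direction and the 4 largest changes with time were added. One further window and single members of runs were named after their values were seen. The comparison and these rules were chosen with earlier results of these data known.

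Within every group the libraries differed beyond sampling noise (chi-square per degree of freedom 3.27 to 27.6), so each library counted once. At 18 h, deviations of same-numbered libraries of the doses correlated with r = 0.60, 0.19 and 0.45 across regions. Replicate 2 of the higher dose correlated better with replicate 3 of the lower dose (r = 0.23) than with its own number. Pairing by number is therefore not settled, and the labels do not state one. The steps were tested on simulated counts. Intervals for single shares were not needed, and depth limits the weak regions most: 3 counts over the 0.1 nM group of 6 h correspond to 0.0385 CPM. Alternatives used DESeq2 1.42.0 and limma 3.58.1 (loess span 0.3).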

Additional observations from a re-analysis of the deposited data

Results flagged for a closer look

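At 4 of the regions described, the difference between 10 nM and 0.1 nM changed between 6 h and 18 h by the edgeR interaction test, each with edgeR adjusted p = 0.0452. The change (log2 difference at 18 h minus that at 6 h) was -3.38 (SE 0.53) at chr17:72432427-72432862 and -3.08 (SE 0.49) at chr6:148887266-148887752. It was -2.63 (SE 0.40) at chr2:202883726-202884078 and -2.35 (SE 0.36) at chr20:49511698-49512213. All 4 changes passed the threshold under 5 other settings, with adjusted p up to 0.0427.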

How the results depend on the processing

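The number of regions higher with 10 nM at 6 h lay between 14910 and 21122 when 1 library was left out, and the number lower between 3760 and 6319. At an adjusted p under 0.01 they were 13150 and 3341, and with a minimum log2 fold change of 1 the number lower was 3730. TMM factors from the 5000 strongest regions gave 2467 lower, 1726 of them in the strongest vehicle quartile, while a covariate for the percentage of counts in those regions gave 11399 lower. The same covariate gave 9373 lower at 18 h, 2885 higher and 1103 lower for 0.1 nM against vehicle, and 5 higher and 642 lower for the change of the dose difference with time. The loess offset gave 487 lower for 0.1 nM against vehicle and 1 and 69 for the change with time; DESeq2's Wald test gave 670, and 1 and 350. The cause was not tested. With a replicate block within each time, 23194 regions were higher and 10376 lower at 6 h. The block gave 17412 lower for 10 nM against vehicle, 2005 and 741 for 0.1 nM against vehicle and 141 lower for the change with time. At 18 h the block gave 11257 higher and 8246 lower, within 1.5 times of the counts without it. Pairing by number is not settled at that time. There, 10 nM replicate 2 correlated with 0.1 nM replicate 3 at r = 0.23 and with 0.1 nM replicate 2 at r = 0.19. Same-numbered libraries of the doses at 6 h correlated with r = -0.17, -0.01 and 0.25, so they share a number and no pairing was read from it; not every library correlated best with its own number. Of the values of named regions under other settings, 645 kept their direction and side of the threshold, 68 (of 12 results) kept the direction and missed the threshold, and 0 reversed. Windows of 2 Mb and runs with gaps of at most 50 kb left the largest shares at 39.5% higher and 31.7% lower and the longest runs at 8 and 6 regions. Depth limits the weakest regions, where a few counts decide a fold.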

Other observations

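Of the 19984 regions called higher with 10 nM than with 0.1 nM at 6 h, 13 were called lower at 18 h, where 4.22% of all regions were. These 13 were picked after their values were seen. The region at chr6:7235559-7237193 was the most open of them, with 25.8 CPM at 0.1 nM and 40.7 CPM at 10 nM at 6 h, and 34.1 CPM and 19.5 CPM at 18 h. At chrX:149864672-149865293, the means were 10.2 and 22.2 CPM at 6 h and 15.8 and 6.76 CPM at 18 h. At chr3:44994059-44994692, they were 11.7 and 21.1 CPM at 6 h and 12.7 and 6.48 CPM at 18 h. The region on chromosome X was among the 15 that passed the edgeR interaction test, and those on chromosomes 6 and 3 were not. By the edgeR test of the doses at 18 h, 0 of the 6947 regions lower at 6 h were called higher.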
